A study of Homo sapiens with 18 samples.

Results

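CSRNP1, TENT5A (older name FAM46A), APOLD1, GPRC5A and FAM43A are 5 less-known genes picked by name for their response to isoproterenol, out of 34287 genes matched in the data and 15530 genes with enough counts to test. All 5 passed the filter on low counts. They were measured by RNA-Seq in HEK293, an established human embryonic kidney line, in 6 groups of 3 biological replicates each. Cells of the wildtype line, of a Gαs KO line and of a β-arrestin1/2 KO line had all been transfected with a β2-adrenergic receptor (β2AR) plasmid and serum starved overnight, and 48 h after transfection they received vehicle (basal) or 1 μM isoproterenol for 1 h. Both KO lines are CRISPR-Cas9 derivatives of HEK293, how many clones they stand for is not given in the sources used here, and the receptor was overexpressed in every group.

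Isoproterenol is an agonist of β-adrenergic receptors. The activated β2AR couples to the G protein subunit Gαs, which stimulates adenylyl cyclase, and the resulting cAMP activates protein kinase A, whose targets include the transcription factor CREB, which binds the cAMP response element (CRE) in gene promoters. β-Arrestins bind the phosphorylated receptor, end its coupling to Gαs and take it into the cell. The 5 genes have little in common by function. CSRNP1 is a cysteine- and serine-rich nuclear protein that activates transcription, TENT5A is a noncanonical poly(A) polymerase that lengthens mRNA tails, APOLD1 is an apolipoprotein L domain protein known as an early response gene of endothelial cells, GPRC5A is an orphan class C receptor induced by retinoic acid, and the function of FAM43A is little known.

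The stretches before the annotated starts of 4 of the 5 genes were found in RefSeq (GRCh38.p14), in 6 windows of 250 bases. CSRNP1 lies on the minus strand of chromosome 3, TENT5A on the minus strand of chromosome 6, FAM43A on the plus strand of chromosome 3, and APOLD1 and GPRC5A on the plus strand of chromosome 12. Both windows of APOLD1, a distal and a proximal start 59.7 kb apart, and the window of the main CSRNP1 transcript are shown, because the 2 starts of APOLD1 carried different parts of its counts and because CSRNP1 had the largest fold among these genes. Each is printed 5′ to 3′ on the strand of the gene and holds no annotated exonic base of it, so the proximal APOLD1 window is cut to 198 bases. Capitals mark the letters TGACG or, for a match on the other strand, CGTCA, the short form of the CRE.
APOLD1 distal start, chr12:12725667-12725916, plus strand: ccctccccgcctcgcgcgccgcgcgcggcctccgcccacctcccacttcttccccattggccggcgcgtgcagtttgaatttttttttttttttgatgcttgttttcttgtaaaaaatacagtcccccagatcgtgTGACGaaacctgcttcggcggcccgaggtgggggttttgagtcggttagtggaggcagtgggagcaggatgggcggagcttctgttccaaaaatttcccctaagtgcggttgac
APOLD1 proximal start, chr12:12785409-12785606, plus strand: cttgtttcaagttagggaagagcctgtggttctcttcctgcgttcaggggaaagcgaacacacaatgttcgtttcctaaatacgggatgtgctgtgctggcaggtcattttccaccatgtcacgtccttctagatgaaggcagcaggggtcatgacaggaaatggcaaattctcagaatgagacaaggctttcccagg
CSRNP1, chr3:39153592-39153841, minus strand: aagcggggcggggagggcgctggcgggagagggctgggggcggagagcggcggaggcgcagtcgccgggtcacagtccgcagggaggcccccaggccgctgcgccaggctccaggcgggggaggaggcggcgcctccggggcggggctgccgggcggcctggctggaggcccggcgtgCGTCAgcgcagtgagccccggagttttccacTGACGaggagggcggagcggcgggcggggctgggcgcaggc

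On both strands of the 250 bases before each RefSeq start, the short CRE was found at positions -72 and -41 of this CSRNP1 window and at position -114 of the distal APOLD1 window. It was in none of the other 4 windows of these genes, which are those of the second CSRNP1 start, FAM43A, TENT5A and the proximal APOLD1 start. Of 35116 RefSeq windows of the same length, 21.2% held it. The full CRE, TGACGTCA, which contains the short form, was in 1.65% of all windows and in 0 of these 6. AP-1 sites (TGANTCA, in 6.57% of all windows) and the CArG box (1.16%) were likewise in 0 of the 6. The letters TATAAA, in 10.7% of all windows, stood at positions -238 and -30 of the TENT5A window and at position -30 of the proximal APOLD1 window, where they fall in the exonic bases left out above. A match describes letters and not a bound site. The RefSeq start of FAM43A lies 661 bases before the start in GENCODE release 29.

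Library totals ran from 17908597 to 25019834 expected counts, the estimates of read pairs per transcript that Salmon gives, with a median of 20419460. Values below are CPM, the counts of a gene as parts of a library's total after TMM scaling, or TPM, which also correct for transcript length, where levels of different genes are compared. GNAS, which encodes Gαs, fell from 1317 ± 379 CPM in wildtype basal cells to 66.0 ± 5.0 CPM in Gαs KO basal cells (SD, n = 3; log2 difference -4.32). ARRB2 fell from 98.8 ± 28.5 to 20.8 ± 2.5 CPM in β-arrestin1/2 KO cells (log2 difference -2.25), whereas ARRB1 had 49.5 ± 14.0 and 41.0 ± 2.9 CPM, which did not pass the test (log2 difference -0.27, adjusted p = 0.141). These counts measure RNA and not protein, and the paper reports by Western blot that both β-arrestin proteins were lost in this line. Wildtype basal replicate 1 stood apart, with a mean GC content of 52.48% against 49.14 to 50.09% in the other 17 libraries. The basal differences and wildtype responses of the 5 genes are therefore also given without it. Other values that use this replicate are given without it only where this is stated. Of 7 markers of HEK293 cells, KRT8, KRT18, VIM and NEFL were high in all groups, while PAX2, LHX1 and NEFM had group means of 0.0798 to 2.53 CPM. The summed level of the 7 was 1679 to 2503 CPM per library with Gαs present and 2934 to 3013 CPM per library where Gαs was lost. Markers of leukocytes, endothelium, hepatocytes and erythroid cells (5 genes) summed to between 0.0529 and 1.52 CPM per library, with HBB at 0 in all.

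The first comparison asked how the 5 genes responded to isoproterenol in wildtype cells and what was left of the response without β-arrestin1/2 or without Gαs. Since the genes were picked for this response, the changes with Gαs present, in wildtype as well as β-arrestin1/2 KO cells, and the differences between lines that contain them, are described with no test. In wildtype cells, APOLD1, CSRNP1, FAM43A and TENT5A were higher in every isoproterenol library than in every basal library, by 1.77- to 3.28-fold between the means, and GPRC5A was not. For all 5 genes the isoproterenol libraries lay above the basal ones in β-arrestin1/2 KO cells. Of all genes tested, 4.85% separated in this way in wildtype and 15.4% without β-arrestin1/2, and nothing is read from the counts of these genes, which were picked for it. Without Gαs, 0 of the 5 passed edgeR's test, and their log2 fold changes lay between -0.12 and 0.15. Of the 15530 genes tested, 0% were called at an adjusted p under 0.05 when Gαs was missing. The share was 0.464% in the wildtype response (0.412% higher and 0.0515% lower) and 1.13% in that of β-arrestin1/2 KO cells (0.953% higher and 0.174% lower). At an unadjusted p under 0.05, 164 of all genes and 0 of the 5 passed in Gαs KO cells, and DESeq2's Wald test called 8 genes there, 0 of them among the 5. These 164 are 1.06% of the genes, less than the share of 0.05 expected where nothing changes. The fit pools the spread of all 6 groups. Wildtype basal libraries had a median absolute log2 departure from their group of 0.25 to 0.58, against 0.083 to 0.096 in Gαs KO libraries. The test and intervals of Gαs KO cells carry that pooled spread, so 0 calls do not show that nothing changed. Without wildtype basal replicate 1 the wildtype log2 changes were 1.565 for APOLD1, 1.325 for CSRNP1, 1.03 for FAM43A, 0.78 for TENT5A and 0.09 for GPRC5A. In bulk RNA, fewer cells that use a gene and less RNA per cell cannot be told apart.

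**Figure D1:**
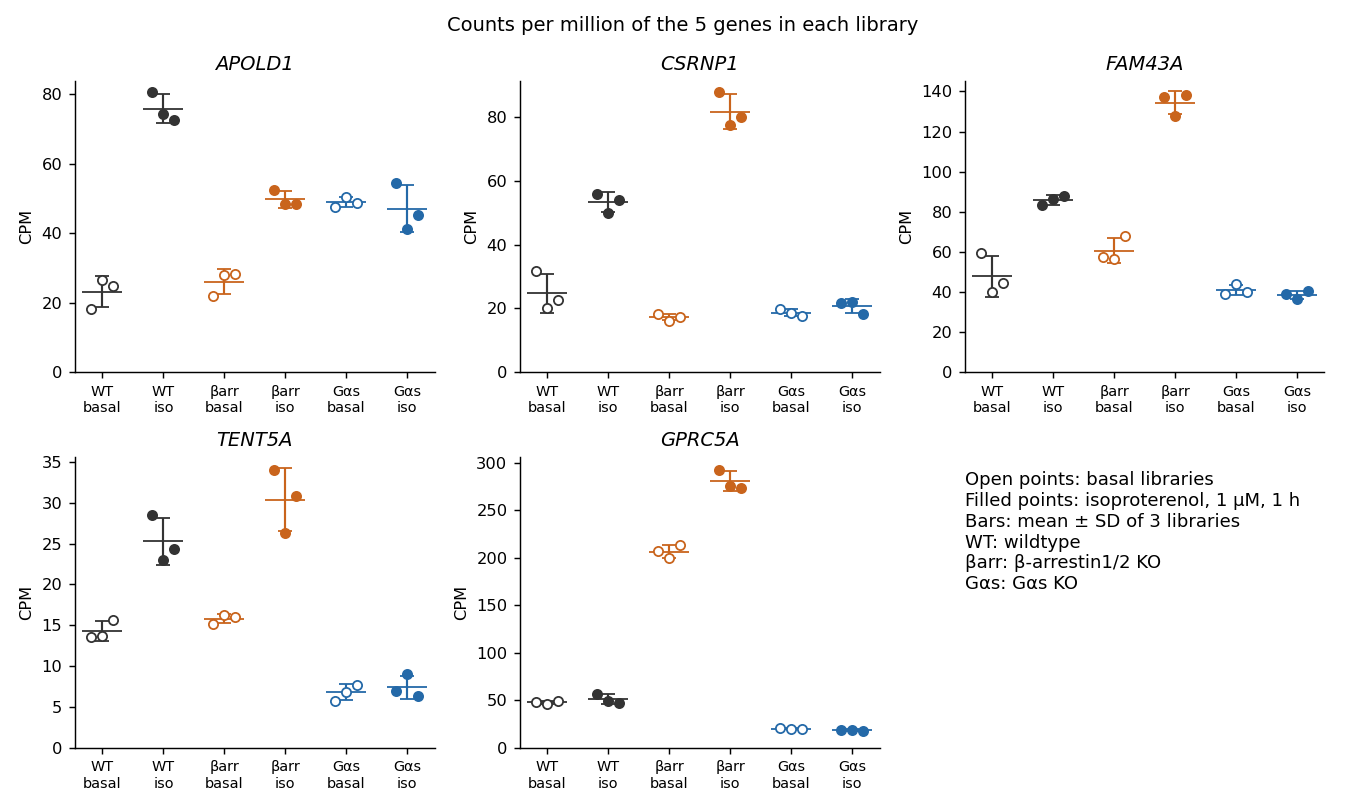
CPM (vertical axes, from 0) of each gene in the 18 libraries, with open points for basal and filled points for isoproterenol, and bars for the mean ± SD of 3 libraries. In Gαs KO cells the filled points overlap the open ones for 4 of the 5 genes and lie just below them for GPRC5A, and the GPRC5A panel shows a basal level of 48.1 CPM in wildtype cells, 206 CPM without β-arrestin1/2 and 19.9 CPM without Gαs.

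CSRNP1, the nuclear activator, had the largest fold of the 5 in β-arrestin1/2 KO cells. Its level in wildtype cells was 31.6, 20.0 and 22.6 CPM at basal and 56.1, 50.002 and 54.0 CPM after isoproterenol. Without β-arrestin1/2 it was 18.2, 16.2 and 17.3 CPM at basal and 87.8, 77.5 and 80.1 CPM after isoproterenol. All stimulated libraries of both lines lay above all of their basal libraries, and the stimulated β-arrestin1/2 KO libraries lay above the stimulated wildtype ones. The stimulated mean was 2.16 ± 0.12 times the basal one in wildtype cells (SD of the 3 stimulated libraries over the basal mean) and 4.75 ± 0.31 times without β-arrestin1/2. On the log2 scale the changes were 1.11 ± 0.14 and 2.25 ± 0.14 (SE), a difference of 1.14 ± 0.19, and 0.92 without wildtype basal replicate 1.

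CSRNP1 in Gαs KO cells had 19.9, 18.4 and 17.6 CPM at basal and 21.8, 22.03 and 18.2 CPM after isoproterenol, so the groups overlapped. The log2 fold change was 0.15 (95% interval -0.14 to 0.44, adjusted p = 1). The stimulated level of these cells was 0.388 times the wildtype one by group means, 20.7 ± 2.2 against 53.4 ± 3.1 CPM. At basal, CSRNP1 was lower than in wildtype in both KO lines, by log2 differences of -0.52 ± 0.14 in β-arrestin1/2 KO (adjusted p = 0.00759) and -0.41 ± 0.14 in Gαs KO cells (adjusted p = 0.0318). These values depend on wildtype basal replicate 1, the highest of its group. Without it they were -0.30 (adjusted p = 0.0184) and -0.20 (adjusted p = 0.118). The Gαs KO value also lost its call without Gαs KO basal replicate 2 (-0.40, adjusted p = 0.0858) or replicate 3 (-0.37, adjusted p = 0.109), and with upper-quartile scaling (adjusted p = 0.058). Fits of only the groups compared called neither (adjusted p = 0.138 in β-arrestin1/2 KO and 0.236 in Gαs KO cells), nor did a fit across transcripts for the main CSRNP1 transcript (adjusted p = 0.265 and 0.392).

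Of the CSRNP1 counts, 93.6% were assigned to the transcript that starts 16 bases from the RefSeq start of the window shown, and 6.41% to one that starts further up. The share of the first was 79.3 to 99.0% in single libraries. The gene shares 204 of its 3214 exonic bases with AC092053.2 on the opposite strand. Whether the libraries keep the strand is not given in the sources used here, so reads of the 2 genes over those bases cannot be told apart.

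TENT5A, the poly(A) polymerase, was the lowest of the 5 per length, with 4.56 ± 0.73 TPM in wildtype basal cells. In CPM its wildtype level was 13.5, 13.7 and 15.7 at basal and 28.5, 23.0 and 24.3 after isoproterenol. The level without β-arrestin1/2 was 15.2, 16.2 and 16.0 CPM at basal and 34.0, 26.3 and 30.8 CPM after isoproterenol. The stimulated libraries lay above the basal ones in both lines and overlapped between the lines. The fold was 1.77 ± 0.20 with β-arrestin1/2 and 1.92 ± 0.24 without, and the log2 changes 0.82 ± 0.14 and 0.94 ± 0.14 (SE) differed by 0.12 ± 0.20, less than its error.

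Without Gαs, TENT5A was low in both states. It had 5.755, 6.85 and 7.70 CPM at basal and 6.95, 8.998 and 6.30 CPM after isoproterenol, and the groups overlapped. The log2 fold change was 0.13 (95% interval -0.19 to 0.45, adjusted p = 1). The basal level was 0.473 times the wildtype one by group means, with all 3 Gαs KO libraries below all 3 wildtype libraries (log2 difference -1.08 ± 0.15, adjusted p = 4.34e-05, and -1.12 without wildtype basal replicate 1). Between β-arrestin1/2 KO and wildtype cells the basal difference was 0.14 ± 0.14 (95% interval -0.16 to 0.45, adjusted p = 0.477), and 0.11 without that replicate.

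The 3 main transcripts of TENT5A held 75.7%, 20.6% and 3.72% of its counts. They end alike and differ in their first exons, with 0, 55 and 66 bases that no other transcript of the gene holds. The share of the first ran from 0 to 100% between libraries of the same Gαs KO group, so the split was not stable and the sum over the gene is the value to read.

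APOLD1, the early response gene of endothelium, had the largest fold of the 5 in wildtype cells, and it was the only one of the 5 whose log2 change was smaller without β-arrestin1/2 than with it. Its wildtype level was 18.1, 26.5 and 24.8 CPM at basal and 80.7, 74.4 and 72.6 CPM after isoproterenol. Cells without β-arrestin1/2 had 21.9, 27.9 and 28.2 CPM at basal and 52.4, 48.5 and 48.3 CPM after isoproterenol. Basal libraries of these lines overlapped, and all stimulated β-arrestin1/2 KO libraries lay below all stimulated wildtype libraries. The folds were 3.28 ± 0.18 and 1.91 ± 0.09. On the log2 scale the changes of 1.71 ± 0.14 and 0.93 ± 0.13 (SE) differed by -0.78 ± 0.19, and by -0.63 without wildtype basal replicate 1. The endothelial markers PECAM1 and CDH5 had group means of 0.0529 to 0.588 CPM.

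APOLD1 in Gαs KO cells was already high at basal. Its level was 47.5, 50.4 and 48.7 CPM at basal and 54.4, 41.3 and 45.3 CPM after isoproterenol. Every basal Gαs KO library lay above every basal wildtype library and below every stimulated wildtype one, and isoproterenol left the groups overlapping. The basal difference from wildtype was 1.08 ± 0.14 on the log2 scale (adjusted p = 1.78e-05), 2.11-fold by group means, and 0.93 without wildtype basal replicate 1 (adjusted p = 3.41e-06). The change after isoproterenol was -0.06 (95% interval -0.34 to 0.23, adjusted p = 1). The basal level in β-arrestin1/2 KO cells differed by 0.17 ± 0.14 (adjusted p = 0.364), and by 0.03 without wildtype basal replicate 1.

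The counts of APOLD1 were shared between its main transcripts, the distal one with 51.8% and the proximal one with 44.9%. The first begins at position 12725931 of chromosome 12 (GRCh38) and the second at position 12785607. They share a last exon of 4558 bases (chr12:12786909-12791466), and only 166 bases at the 5′ end of the first and 88 bases of the second tell them apart, so the split that Salmon makes between them rests on few reads and is described with no test. Transcripts of the proximal start had 18.01, 16.7 and 11.9 CPM in wildtype basal libraries and 75.9, 59.8 and 54.9 CPM after isoproterenol. Without β-arrestin1/2 they had 0, 20.1 and 0 CPM at basal and 41.6, 29.4 and 34.9 CPM after isoproterenol. Without Gαs they had 0, 0 and 6.39 CPM at basal and 0, 1.86 and 0 CPM after isoproterenol. The increase was thus assigned to the proximal start wherever Gαs was present, and nearly nothing was assigned to that start where it was not.

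Transcripts of the distal start showed another order. They had 0.109, 9.77 and 12.9 CPM in wildtype basal libraries and 4.78, 14.6 and 17.7 CPM after isoproterenol. Without β-arrestin1/2 they had 21.9, 7.80 and 28.2 CPM at basal and 10.8, 19.1 and 13.3 CPM after isoproterenol, with overlap in both lines. Without Gαs they had 47.5, 50.4 and 42.4 CPM at basal and 54.4, 39.4 and 45.3 CPM after isoproterenol, above every library of the other lines. The high basal level of APOLD1 in Gαs KO cells was thus assigned to the distal start, and the isoproterenol response of the other lines to the proximal one. A minor transcript, with 2.38% of the counts, runs on through exons of DDX47, which lies on the same strand, so reads of the 2 genes over the shared exons cannot be told apart. DDX47 itself had 53.9 to 97.6 CPM per library.

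**Figure D2:**
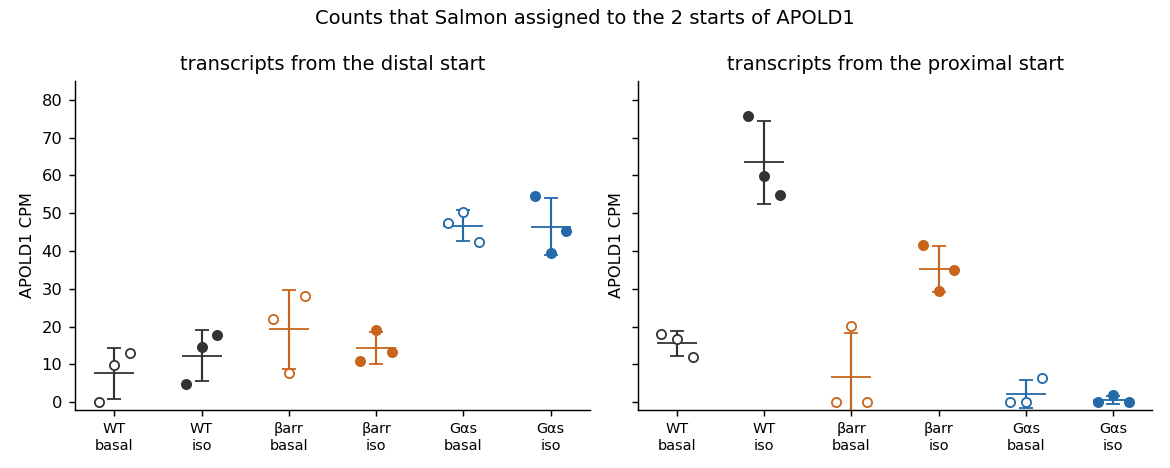
CPM assigned to APOLD1 transcripts that begin at the distal start (left) and at the proximal start (right), with open points for basal libraries, filled points for isoproterenol, and bars for the mean ± SD of 3 libraries. The distal start has a mean of 46.7 CPM in Gαs KO basal cells against 7.59 CPM in wildtype, and the proximal start goes from 15.5 to 63.5 CPM in wildtype cells.

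GPRC5A, the orphan receptor, differed between the lines far more than it moved with isoproterenol. In wildtype cells it had 48.6, 46.4 and 49.4 CPM at basal and 56.8, 48.8 and 46.9 CPM after isoproterenol, so the groups overlapped and the wildtype data go against its naming as responsive. The fold was 1.06 ± 0.11 and the log2 change 0.08 ± 0.08 (SE), from -0.01 to 0.14 when each library was left out in turn, the lowest being without wildtype isoproterenol replicate 1. Its level without β-arrestin1/2 was 207, 199 and 213 CPM at basal and 293, 276 and 274 CPM after isoproterenol, with no overlap. Here the fold was 1.36 ± 0.05 and the log2 change 0.44 ± 0.07, a difference of 74.3 CPM between the means. The differences from the wildtype log2 change were 0.36 ± 0.11 in β-arrestin1/2 KO and -0.20 ± 0.11 in Gαs KO cells.

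GPRC5A in Gαs KO cells had 20.6, 19.6 and 19.6 CPM at basal and 19.1, 18.6 and 17.3 CPM after isoproterenol. All 3 stimulated libraries lay below all 3 basal ones, as they did for 5.57% of all genes tested, and the log2 fold change of -0.12 did not pass the test (95% interval -0.29 to 0.05, adjusted p = 1). The basal difference from wildtype was 2.10 ± 0.08 in β-arrestin1/2 KO cells (4.29-fold by group means, adjusted p = 1.37e-11) and -1.27 ± 0.08 in Gαs KO cells (0.414 times wildtype, adjusted p = 7.4e-09). The basal libraries of the 3 lines did not overlap. Without wildtype basal replicate 1 the differences were 2.11 and -1.27. Of the counts, 97.6% were assigned to 1 transcript, whose share was 86.7 to 99.6% in single libraries.

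FAM43A has 1 transcript with a single exon of 2494 bases (chr3:194686544-194689037), so its sum depends on no split between transcripts. It was the highest of the 5 per length, with 33.7 ± 3.4 TPM in wildtype basal cells, followed by CSRNP1 with 14.2 ± 1.7, GPRC5A with 14.1 ± 1.9, APOLD1 with 11.0 ± 4.0 and TENT5A with 4.56 ± 0.73 TPM. CSRNP1, GPRC5A and APOLD1 lay within each other's spread. FAM43A had 59.2, 39.8 and 44.2 CPM in wildtype basal libraries and 83.2, 86.4 and 87.9 CPM after isoproterenol. Cells without β-arrestin1/2 had 57.4, 56.6 and 67.8 CPM at basal and 137, 128 and 138 CPM after isoproterenol. Stimulated libraries lay above basal ones in both lines, and those of β-arrestin1/2 KO cells above those of wildtype. The folds were 1.80 ± 0.05 and 2.22 ± 0.09, and the log2 changes 0.84 ± 0.12 and 1.15 ± 0.12 (SE) differed by 0.30 ± 0.16, and by 0.12 without wildtype basal replicate 1.

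The level of FAM43A in Gαs KO cells was 38.8, 43.9 and 40.2 CPM at basal and 38.7, 36.5 and 40.3 CPM after isoproterenol, with overlap and a log2 fold change of -0.09 (95% interval -0.34 to 0.16, adjusted p = 1). Basal libraries of each KO line overlapped those of wildtype. The basal difference in β-arrestin1/2 KO cells was 0.34 ± 0.12 (adjusted p = 0.0341), and 0.53 without wildtype basal replicate 1 (adjusted p = 3.49e-05). It did not pass the test without wildtype basal replicate 2 (0.23, adjusted p = 0.117) or 3 (0.30, adjusted p = 0.101), without β-arrestin1/2 KO basal replicate 3 (0.27, adjusted p = 0.137), or in the fit of only the groups compared (adjusted p = 0.268). Between Gαs KO and wildtype cells the basal difference was -0.22 ± 0.12 (adjusted p = 0.167), -0.04 without wildtype basal replicate 1 (adjusted p = 0.701) and -0.34 without replicate 2 (adjusted p = 0.0267).

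**Figure D3:**
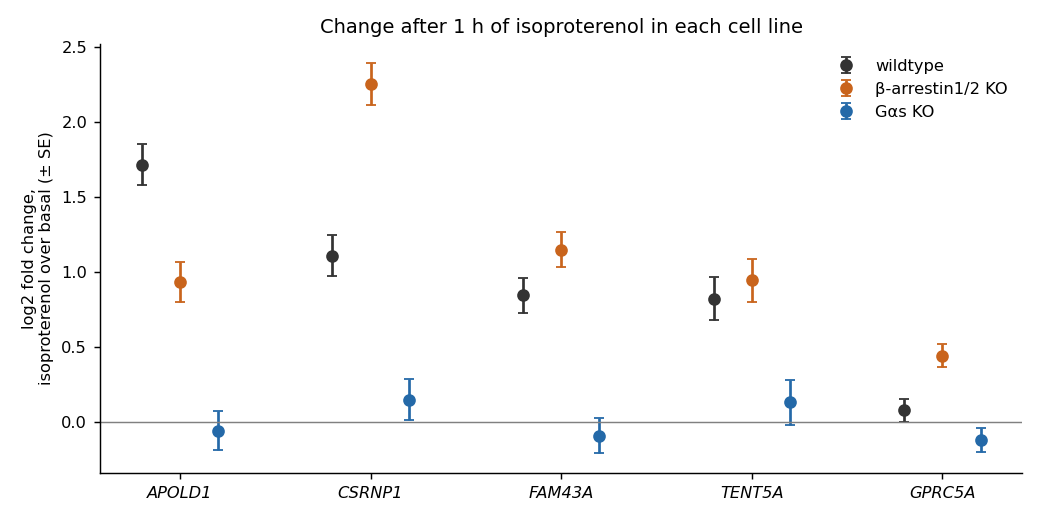
Log2 fold change of isoproterenol over basal (vertical axis) with its standard error, for each gene in the 3 lines. CSRNP1 changes by 1.11 in wildtype, 2.25 without β-arrestin1/2 and 0.15 without Gαs, and APOLD1 by 1.71, 0.93 and -0.06.

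The second comparison was of basal levels. The basal wildtype libraries it uses are also those of the wildtype response by which the genes were picked. Without β-arrestin1/2, 3 of the 5 differed from wildtype, with CSRNP1 lower and FAM43A and GPRC5A higher, where 33.5% of all genes tested were called (15.7% higher and 17.9% lower). Without Gαs, 4 of the 5 differed, with APOLD1 higher and CSRNP1, TENT5A and GPRC5A lower, where 31.3% of all genes were called (14.2% higher and 17.1% lower). So many genes were called in both lines that a count of 3 or 4 among 5 says little of these genes in particular. DESeq2's Wald test also called 3 and 4 of them, and fits of only the groups compared called 1 and 3.

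The relatives of the 5 genes by name were looked at in the same fit. Of 15 relatives, 11 passed the filter, and TENT5D, GPRC5D, APOL3 and APOL5 did not. Isoproterenol gave 0 calls among the 11 in each of the 3 lines by edgeR, and 0 by DESeq2. Over all genes tested, edgeR called 0.464% for the wildtype response, 1.13% without β-arrestin1/2 and 0% without Gαs. At such shares, 0 calls among 11 genes do not set the relatives apart from other genes. At an unadjusted p under 0.05 there was 1 in wildtype cells (TENT5C, log2 fold change 0.29, adjusted p = 0.47), 1 in β-arrestin1/2 KO cells (APOL1, -0.96, adjusted p = 0.522) and 0 in Gαs KO cells. Median log2 fold changes of the 11 were -0.13, -0.17 and 0.03, in the same order, against -0.0021, -0.0082 and -0.0011 over all genes tested.

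At basal, CSRNP2, another CSRNP nuclear protein, went from 47.1 ± 3.6 CPM in wildtype to 34.2 ± 2.8 CPM in β-arrestin1/2 KO cells (log2 difference -0.46, adjusted p = 0.0019). GPRC5B, an orphan receptor like GPRC5A, was lower in both KO lines, at 38.1 ± 2.5 CPM in wildtype, 21.3 ± 1.4 CPM in β-arrestin1/2 KO (log2 difference -0.83, adjusted p = 2.45e-06) and 22.6 ± 1.6 CPM in Gαs KO cells (-0.75, adjusted p = 6.97e-06). GPRC5A and GPRC5B thus differed from wildtype in opposite directions where β-arrestin1/2 was lost. GPRC5C was lower in Gαs KO cells (log2 difference -0.94, adjusted p = 0.00969), but by -0.51 without wildtype basal replicate 1 (adjusted p = 0.0337), and its call was lost without Gαs KO basal replicate 1 (-0.74, adjusted p = 0.0534). TENT5B, also a poly(A) polymerase, was higher in Gαs KO cells at 11.1 ± 1.6 CPM against 6.85 ± 2.94 CPM in wildtype (0.69, adjusted p = 0.0222), where TENT5A was lower. The TENT5B difference was 1.10 without wildtype basal replicate 1 (adjusted p = 2.1e-05), and its call was lost without wildtype basal replicate 2 (0.50, adjusted p = 0.0817) or 3 (0.55, adjusted p = 0.0881) and without Gαs KO basal replicate 1 (0.69, adjusted p = 0.0551) or 2 (0.59, adjusted p = 0.0899). In β-arrestin1/2 KO cells TENT5B had 0.57 (adjusted p = 0.0537), and 0.98 without wildtype basal replicate 1 (adjusted p = 6.37e-05). The other 7 relatives tested were called in neither line, and CSRNP3, whose libraries scattered widely, had standard errors of 1.64 and 1.63 on the log2 scale.

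**Figure D4:**
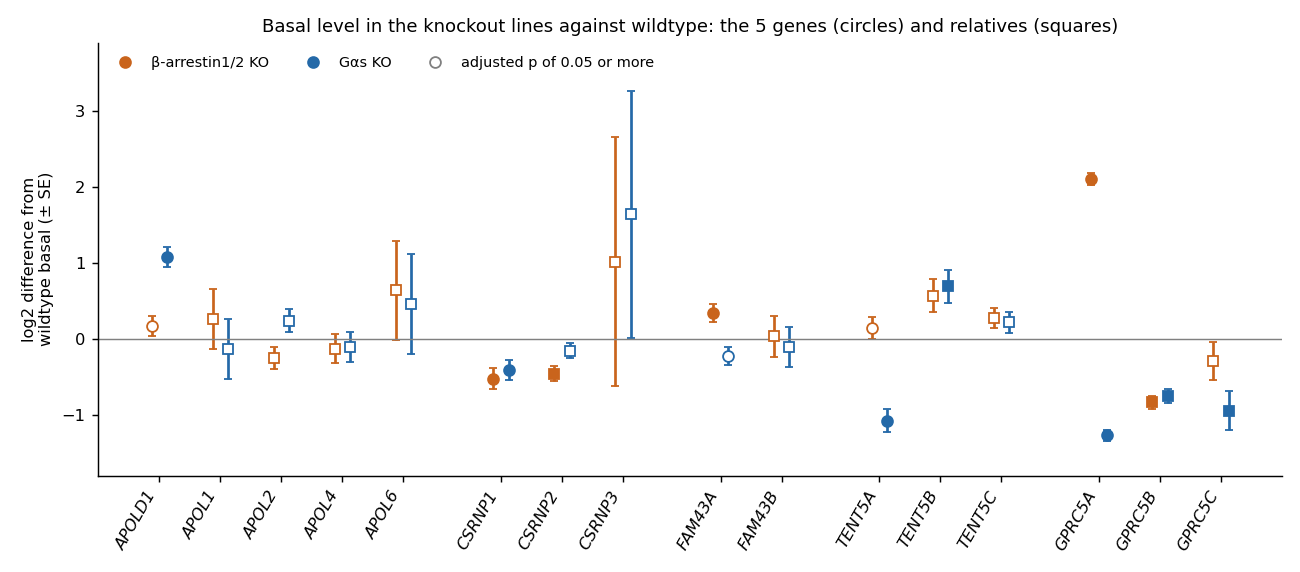
Log2 difference from wildtype at basal (vertical axis) with its standard error for the 5 genes (circles) and their 11 relatives tested (squares) in the KO lines, filled where the adjusted p is below 0.05. GPRC5A lies at 2.10 and -1.27, and GPRC5B at -0.83 and -0.75.

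Beside the 5 genes, 12 textbook targets of cAMP and serum signalling (NR4A1, NR4A2, NR4A3, SIK1, CREM, PER1, FOS, FOSB, JUNB, DUSP1, PCK1 and BTG2) were taken as a reference. Of these, 10 were called higher in the wildtype response (median log2 fold change 2.39 over the 12) and 11 in that without β-arrestin1/2 (median 3.29). Of all genes tested, 0.412% and 0.953% were called higher in these responses. The median of the 12 was 0.04 without Gαs. This list too was chosen with earlier results of these data known, so its counts are a description and no independent support. The median of the 5 genes was 0.84 in wildtype cells, 0.94 without β-arrestin1/2 and -0.06 without Gαs. These comparisons share their libraries with those of the 5 genes.

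Likeness of pattern was measured as Pearson's r of log2 CPM over the 18 libraries, among 12501 other genes with a mean of at least 50 counts, and is given as a description, since the libraries fall into the same 6 groups for every gene. CSRNP1 was most like FOSL2 (r = 0.98), ATF3 (0.97) and GEM (0.97). FAM43A was most like DUSP1, SIK1B and BTG2 (all 0.97), of which SIK1B is a near-identical copy of SIK1 and its counts are uncertain. TENT5A was most like ID2 (0.98), PCK1 (0.97) and KLF9 (0.97). APOLD1 was less like any gene, with PPP1R15B (0.90), MT-ND5 (0.85) and CITED2 (0.84) nearest. GPRC5A was nearest to AMBN, SLAIN1 and ATP9A (all 0.99). Among the 5 themselves, r was 0.90 between CSRNP1 and FAM43A and between FAM43A and TENT5A, 0.80 between CSRNP1 and TENT5A, and -0.22 to 0.51 between APOLD1 and the others. For GPRC5A, r was 0.48 with CSRNP1, 0.77 with FAM43A and 0.78 with TENT5A.

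APOLD1 and GPRC5A are neighbours, with starts 164.865 kb apart on chromosome 12. Of the 8 genes tested with a start within 500 kb of GPRC5A, 5 differed from wildtype at basal in β-arrestin1/2 KO and 6 in Gαs KO cells, where 33.5% and 31.3% of all genes were called. APOLD1, itself 1 of the 5 picked genes, is among these 8 and among the 6 called in Gαs KO cells. Of the 9 genes around CSRNP1, 2 and 1 were called. Of the 3 around FAM43A, edgeR called 0 in either line, with 0 at an unadjusted p under 0.05 and 0 by DESeq2. EMP1, an epithelial membrane protein whose start lies 305.934 kb downstream, was higher in β-arrestin1/2 KO cells by 3.47 on the log2 scale (adjusted p = 2.56e-08), together with GPRC5A, and did not differ by the test in Gαs KO cells (-0.02, adjusted p = 0.97). DDX47, which lies between APOLD1 and GPRC5A, was lower in both KO lines (-0.47, adjusted p = 0.00053, and -0.65, adjusted p = 2.78e-05). CDKN1B, a cell cycle inhibitor whose start lies at -10.859 kb from that of APOLD1, was higher in both at basal (0.77, adjusted p = 2.21e-05, and 0.69, adjusted p = 6.73e-05). After isoproterenol, CDKN1B rose in wildtype cells (0.53, adjusted p = 0.0168) and had 0.09 (adjusted p = 0.845) in β-arrestin1/2 KO cells. The difference between these responses of CDKN1B did not pass the test (-0.44, adjusted p = 0.461), so the lines cannot be said to differ in it. TENT5A had no tested gene within 500 kb.

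**Figure D5:**
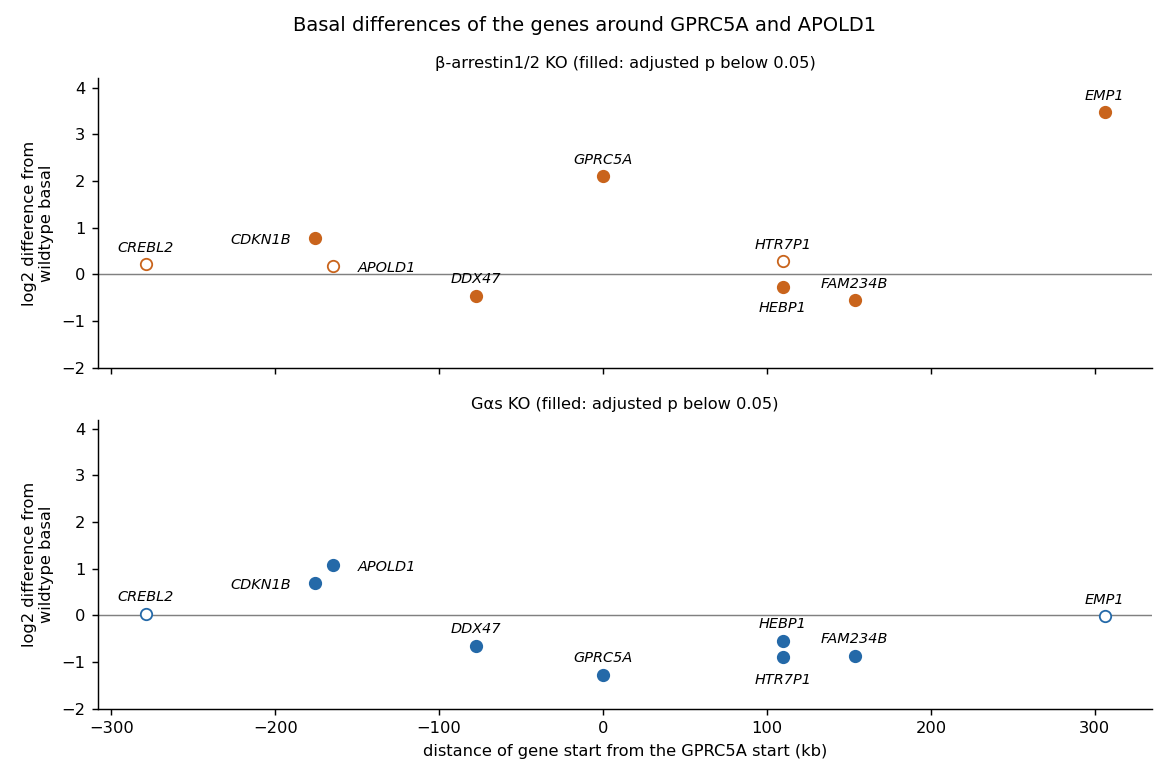
Log2 difference from wildtype at basal (vertical axes) against the distance of each gene's start from that of GPRC5A in kb (horizontal axis), in β-arrestin1/2 KO cells (top) and Gαs KO cells (bottom), filled where the adjusted p is below 0.05. GPRC5A and EMP1 are high in the upper panel, at 2.10 and 3.47, and neither is high in the lower one.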

How the data were processed

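The authors deposited expected counts per transcript, estimated by Salmon 1.7.0 from paired poly(A) RNA-Seq reads of 18 libraries, not normalized for depth or length. The submitters' notes name GRCh38 and DESeq2, and the transcript index is not given in the sources used here. No sample column was left unused (0). Of 184844 transcripts, 161838 matched GENCODE release 29 (GRCh38) by identifier without version, which keeps 92.9 to 93.8% of a library's counts. Gene sums were rounded. The 5 genes and all lists were chosen with earlier results of these data known.

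Groups were taken from the labels, and replicates are labelled as biological. R 4.3.3 with edgeR 4.0.16 was used: TMM scaling, filterByExpr by group (15530 genes), a quasi-likelihood model with 6 group coefficients over all 18 libraries, and Benjamini-Hochberg adjustment over all genes tested. A gene was called at an adjusted p under 0.05. Standard errors are the size of the log2 fold change over the square root of F, and 95% intervals use the t distribution of the fit. Every adjusted p comes from this fit, or from the same fit under the alternative or without the library named beside it. TPM used annotated lengths. Genes named are the 5, the targeted genes, the relatives that passed the filter, the tested genes starting within 500 kb, and the 3 genes most alike in log2 CPM (prior count 2, mean count of at least 50). DESeq2 1.42.0 was an alternative, as were other scalings and filters, fits of only the groups compared, a replicate block, GC offsets (lowess, span 0.3), leaving out each library, and the main transcript. The scripts were tested on simulated data. Promoter windows came from RefSeq (GRCh38.p14). The level of 1 further gene is not reported here.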

Additional observations from a re-analysis of the deposited data

Results flagged for a closer look

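For GPRC5A every stimulated library lay above every basal library in β-arrestin1/2 KO cells and below every basal library in Gαs KO cells. Of all genes tested, 15.4% separated upward in the first line and 5.57% downward in the second. The share of genes that did both was not counted. The log2 changes differed by 0.563 between these lines. This difference was not tested, because the gene was picked for its response, and within Gαs KO cells the change did not pass the test.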

How the results depend on the processing

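The count of the 5 genes called after isoproterenol in Gαs KO cells was 0 under all 15 alternatives, and so were the counts of relatives called in the 3 responses. At basal, the counts of 3 (β-arrestin1/2 KO) and 4 (Gαs KO) ran from 2 to 3 and from 3 to 5 when single libraries were left out, and the second was 3 with upper-quartile scaling and in the fit of only the groups compared. Relatives called at basal were 2 and 3 of the 11, where 33.5% and 31.3% of all genes were called. These counts of relatives ran from 2 to 3 and from 1 to 4 when single libraries were left out. The 1 was in Gαs KO cells without Gαs KO basal replicate 1. In fits of only the groups compared, which hold 6 of the 18 libraries, 1 of the 5 genes and 1 relative were called in β-arrestin1/2 KO and 1 relative in Gαs KO cells. Libraries of equal replicate number showed little shared departure from their group means, with mean correlations between -0.063 and 0.036 over the 5 comparisons. Libraries of unequal number were not compared, so this does not tell whether the samples were paired in the experiment. With the replicate block, 3 and 4 of the 5 genes and 2 and 3 relatives were called at basal and 0 in Gαs KO cells after isoproterenol, so no count changed.

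Several signs turned. In TENT5A the basal β-arrestin1/2 KO difference was -0.01475 with GC offsets and -0.005191 with GC offsets and the replicate block, and the Gαs KO response was -0.14 for its main transcript alone and, when single libraries were left out, -0.02963 (without Gαs KO isoproterenol replicate 2) to 0.24. In APOLD1 that response was -0.17 to 0.03171 when single libraries were left out, the highest being without Gαs KO isoproterenol replicate 2. The β-arrestin1/2 KO response of APOLD1, which was described with no test, went from 0.93 to -0.38 for its distal transcript alone. For its proximal transcript alone, an alternative chosen after seeing the data, the basal differences went from 0.17 to -1.12 (β-arrestin1/2 KO) and from 1.08, which is past the threshold, to -2.82 (Gαs KO). The basal β-arrestin1/2 KO difference of GPRC5C was -0.54 to 0.15 when single libraries were left out, the highest being without wildtype basal replicate 1. For main transcripts alone, the basal Gαs KO differences of APOLD1 (2.69, adjusted p = 0.2) and TENT5A (-1.39, adjusted p = 0.667) lost their calls. The single-transcript values given here have standard errors of 0.98 to 1.89. With 3 libraries per group, small changes are not detectable, and no value tells RNA made from RNA kept.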
